A study of Mus musculus with 12 samples.

Results

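The genes described here are those named for the translation initiation factors (eIF) and elongation factors (eEF). Most encode factor subunits, and some encode proteins that act on them, such as the kinases Eif2ak1, Eif2ak4 and Eef2k, the methyltransferases Eef1akmt1, Eef1aknmt and Eef2kmt and the eIF4E-binding proteins Eif4ebp2 and Eif4enif1. They were taken from an expression time course of MB114 cells, a mouse microvascular endothelial line, kept on Matrigel, a gel of basement membrane proteins. Members were all genes whose symbol on the array's annotation begins with Eif1 to Eif6, Eef1 or Eef2, with Eif2ak2, Eif2ak3 and Eif4ebp1 left out. The rule picked genes by name and by no measured value, but it was set with earlier results of these data known. It found 49 genes, read by 110 of the table's 22690 probe sets, and each gene was represented by its brightest probe set. Of the 49 genes, 44 passed a filter on dim signals and were tested among 7379 genes in all. The 4 groups were cells of this 1 line collected 1, 5, 15 and 25 h after plating on Matrigel, with 3 arrays at each time. The labels name no other treatment and no genetic change in any group, and they call the 3 arrays of a time biological replicates. They do not say that the cultures were started separately, so the p-values measure the spread between these arrays.

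Protein synthesis starts when eIF2, bound to GTP, carries the initiator tRNA to the small ribosomal subunit together with eIF1, eIF1A, eIF3 and eIF5. The eIF4 factors bring the mRNA: eIF4E holds the cap, eIF4G is the scaffold, and eIF4A, helped by eIF4B and eIF4H, unwinds the leader. eIF2B recharges eIF2 with GTP, eIF5B joins the large subunit, eEF1A delivers each aminoacyl-tRNA, and eEF2 moves the ribosome along. Growing cells use much of their energy on this machinery, and signals through mTOR, MNK and the eIF2 kinases set its rate mostly by phosphorylation, which arrays of RNA do not read.

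Values are the deposited MAS5 signals, which estimate brightness on a linear scale, and changes are differences of mean log2 signal. The trimmed mean signal was about 500.2 on every array, and the median signal ran from 154 to 209. It was 167 to 176 at 1 h, 154 to 177 at 5 h, 187 to 204 at 15 h and 181 to 209 at 25 h. The arrays numbered 1 stood apart: a control probe set for 18S rRNA read 710 to 2558 on them and 101 to 178 on the others. For 12 of the 44 tested members, Eef1a1, Eef2, Eif4a1, Eif4g2, Eif4h and Eif5a among them, the array numbered 1 was the highest of the 3 at all 4 times. Arrays of the same number also deviated together (r 0.328 to 0.758 over 18 pairs), so the text also gives results with the number as a block and without the arrays numbered 1. Of 12 endothelial markers only Cd34, Cdh5 and Flt1 passed the filter; Pecam1 read 9.4 to 47.6 and Vwf and Tie1 were under 3 on every array. The summed signal of the endothelial markers was 924 to 1447 at 1 h and 1175 to 1882 at 25 h. The sum over 8 fibroblast markers, 7 of them above the filter, was 35505 to 47631 at 1 h and 50602 to 76871 at 25 h, and that over 7 pericyte and smooth muscle markers, 5 above it, was 9217 to 22701 at 1 h and 4132 to 6066 at 25 h. For 6 leukocyte markers the sum was 2212 to 5351 at 1 h and 7004 to 10683 at 25 h. Cd14 and Csf1r were above the filter and Ptprc, Cd68, Itgam and Cd3e below it. Of the 2 tested, 1 was higher at 25 h than at 1 h (log2 change 2.86) and 1 lower (-1.57; limma, adjusted p under 0.05). The sum thus shows no common rise. Among all genes tested 21.6% were higher and 15.1% lower. None of 6 parietal endoderm markers passed the filter. The part of these cell type markers in the results was not tested.

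By 25 h, 14 of the 44 tested members were lower than at 1 h and 1, Eif4g3, was higher (limma, adjusted p under 0.05 over all genes tested). Among all 7379 genes 36.7% were called, 15.1% lower and 21.6% higher. The members' share called in either direction, 34.1%, was near that background, whereas 31.8% of them were lower and 2.27% higher. Their median log2 change was -0.19, beside 0.13 over all genes tested. The members that fell belonged to eIF2, eIF2B, eIF3, eIF4, the eIF5 to eIF6 group and eEF1, with Eef1e1, which carries the eEF name only, while the main elongation factor genes Eef1a1 and Eef2 were not called. In bulk RNA, fewer cells with a transcript and less transcript per cell cannot be told apart.

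Without the replicate number as a block, members were called from 15 h on. The absence of calls at 5 h stands beside a small share of all genes, so no onset is read from it. At 5 h against 1 h limma called no member at an adjusted p under 0.05, against 1.65% of all genes (0.881% higher, 0.772% lower), although 4 members had an unadjusted p under 0.05. With the replicate number as a block it called Eif4b, lower, against 7.77% of all genes (4.49% higher, 3.28% lower). At 15 h against 1 h 7 members were lower and none higher, where 23.8% of all genes were called, 8.44% lower and 15.4% higher. With the block the count was 20, 14 lower and 6 higher, against 40.2% of all genes (15.1% lower, 25.1% higher). At 25 h against 1 h the block gave 22, 17 lower and 5 higher, against 51.2% (21% lower, 30.2% higher). At 15 h against 5 h 6 members were lower and 1 higher, against 14.5% of all genes, 5.75% lower and 8.73% higher, and the block raised this to 11 lower and 3 higher, against 32.7% (13.4% lower, 19.4% higher). Between 15 and 25 h limma called no member and 4 had an unadjusted p under 0.05, while 0.772% of all genes were called, 0.745% lower and 0.0271% higher. With the block none was called and 8 had an unadjusted p under 0.05, against 4.26% of all genes called (3.06% lower, 1.19% higher). The comparisons with 1 h share the 1 h arrays, and those at 15 h share the 15 h arrays, so their lists are not independent of each other.

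An F test over the 4 times called 12 members, against 34.9% of all genes, and 25 with the block, against 55.1%. The 12 were Eef1d, Eef1e1, Eif2b1, Eif2s2, Eif2s3x, Eif3a, Eif3b, Eif3c, Eif4e, Eif4g3, Eif5b and Eif6. Leaving out the arrays numbered 1 reduced the counts to 1 at 15 h against 1 h (Eif4e), 0 at 15 h against 5 h and 5 in the F test, where 6.37%, 0.0407% and 14% of all genes were then called. At 25 h against 1 h it left 10, of which 9 were among the 15, against 21.1% of all genes. Without those arrays but with the block, 6 of the 7, 6 of the 7 and 14 of the 15 calls were kept, among 26.3%, 18.1% and 38.2% of all genes called. Single arrays mattered for the shorter lists: the 15 h against 1 h count was 4 without 1 h replicate 1 or 1 h replicate 2 and 3 without 15 h replicate 3. At 15 h against 5 h it was 3 without 5 h replicate 2, 5 h replicate 3, 15 h replicate 2 or 15 h replicate 3, and 2 without 15 h replicate 1. At 25 h against 1 h it stayed between 12 and 16.

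The scaling of the arrays bears on the split by direction. Centring each array on its median moved the median change of all genes at 25 h from 0.13 to -0.06 and that of the members from -0.19 to -0.38. Centring shifts the change of every gene by the same amount, so the distance between these medians could not change and nothing is read from it. The calls became 15 lower and none higher, where 19.8% of all genes were lower and 13.8% higher. Quantile normalization gave 14 lower and 3 higher, against 15.9% of all genes lower and 19.3% higher. At 15 h against 5 h the split was 9 lower and none higher with centring (11.8% of all genes lower and 4.4% higher) and 6 lower and none higher with quantile normalization (5.96% and 7.06%).

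**Figure D1:**
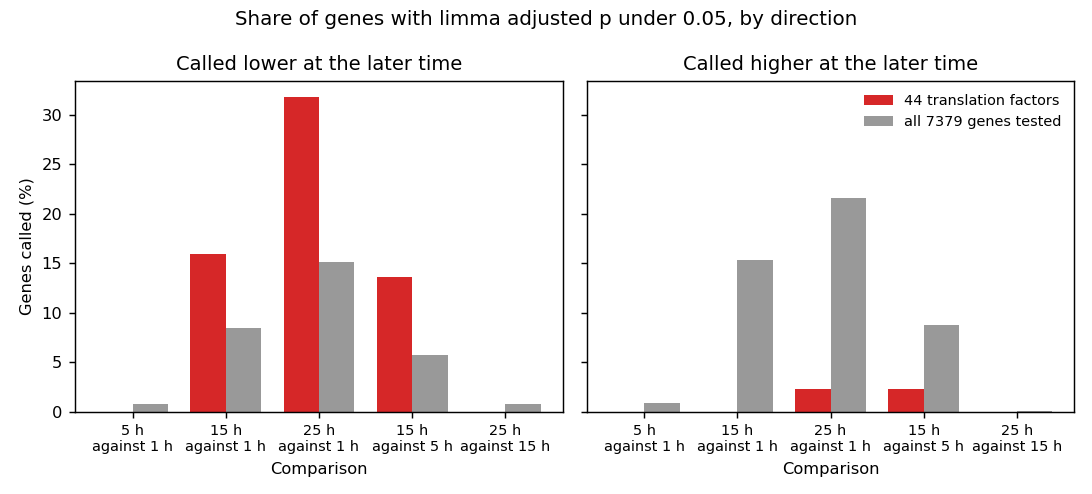
Share of genes called (%, limma adjusted p under 0.05) for 5 comparisons, lower at the later time on the left and higher on the right, for the 44 tested translation factors (red) and all 7379 genes tested (grey). At 25 h against 1 h, 31.8% of the factors and 15.1% of all genes were lower, and 2.27% and 21.6% were higher.

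**Figure D2:**
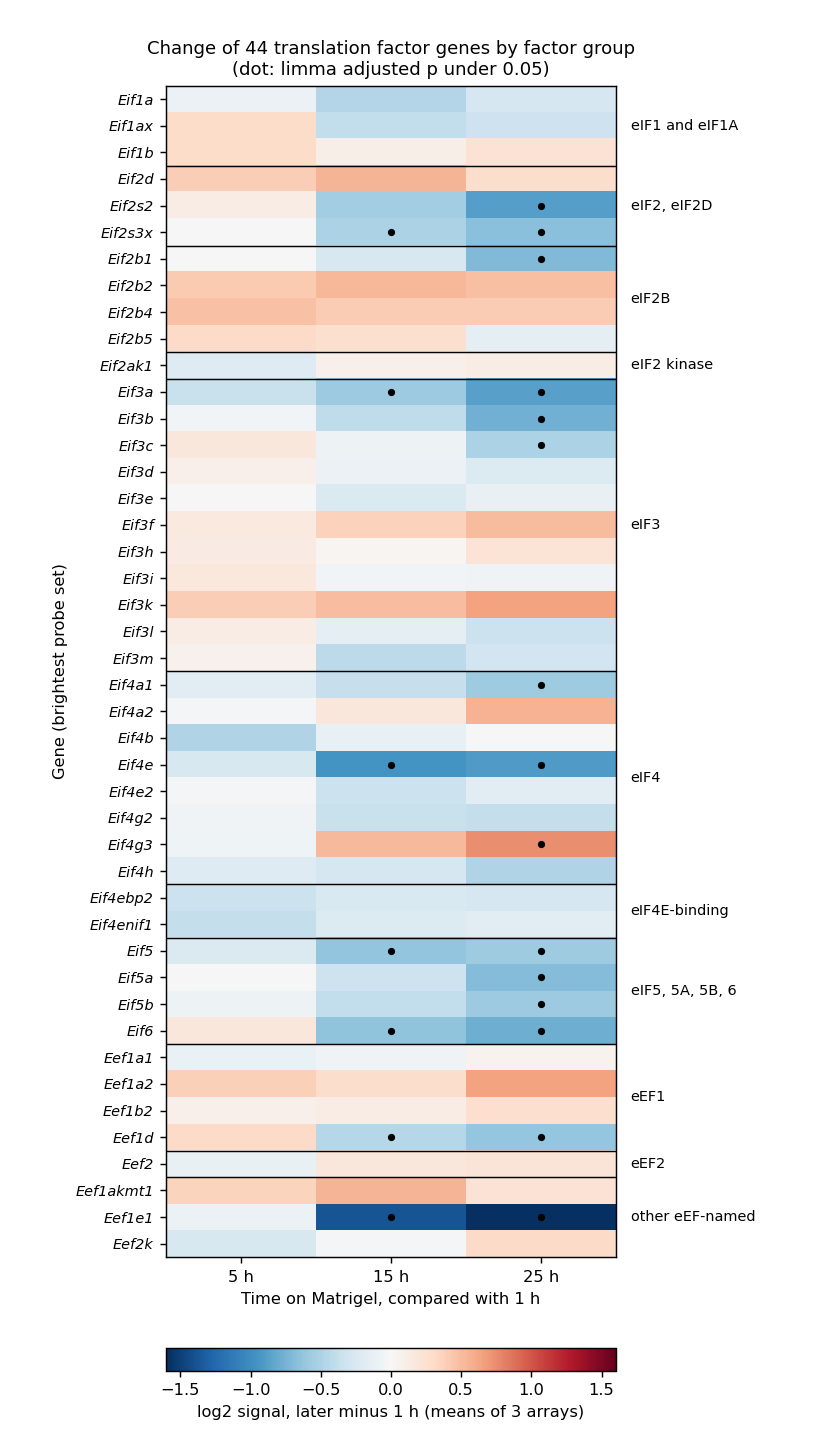
Mean log2 change of each tested factor gene at 5, 15 and 25 h against 1 h (colour, 3 arrays a time), by factor group; dots mark calls at an adjusted p under 0.05. No dot falls at 5 h, where 1.65% of all genes tested were called. The 1 called increase at 25 h without the replicate block is Eif4g3.

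The E-box CACGTG, a sequence that Myc and Max can bind, was looked for in the 250 bases before each RefSeq start (GRCm38.p6), since Myc is a known regulator of several of these genes. The motif is its own reverse complement, so both strands are covered. Of the 49 members 40 had a RefSeq promoter entry, and 10 of these, 25.0%, held the motif in at least 1 window, against 1854 of 27025 genes, 6.86%. Those 27025 include genes that were not tested here, and a gene with several windows has more chances to hold the motif. These 2 shares are therefore not like for like, and no excess is read from them. It was held by 3 of the 12 matched members that were lower at 25 h (Eif4e, Eif4a1 and Eif5a), 25.0%, and by 6 of the 24 other tested members, also 25.0%. The share was the same in both. Both shares rest on the calls without the replicate number as a block. With the block Eif3f and Eif3k were called higher at 25 h and Eif4h lower. Eef2k, Eif1b and Eif4h held the motif too and are not printed. The stretches below show the motif in the 3 members that fell and in Eif3f, Eif3k and Eef2, which were not called without the block. The motif is in capitals, with 10 bases on each side, on the gene's own strand 5′ to 3′.
Eif4e, chr3:138527030-138527055 (+): cgccagcgacCACGTGatcacttttt
Eif4e, chr3:138527194-138527219 (+): acacgtccgtCACGTGggcaggagcc
Eif4a1, chr11:69672597-69672622 (-): atcgcctccgCACGTGtaaaggtgct
Eif5a, chr11:69920793-69920818 (-): gctgcgcggcCACGTGaggtggggga
Eif5a, chr11:69921445-69921470 (-): ggggcggggtCACGTGtgtgcgtcat
Eif3f, chr7:108934337-108934362 (+): agatatgattCACGTGgtataaattt
Eif3k, chr7:28981917-28981942 (-): ggaaggaaatCACGTGgtagacaaaa
Eef2, chr10:81176578-81176603 (+): ccggcgccgtCACGTGacgcacccaa
The Eif4e motifs lie 228 and 64 bases before the start, and those of Eif3f, Eif3k and Eef2 lie 68, 44 and 43 bases before theirs. The flanking bases differ from gene to gene. Eif4e and Eif5a have several RefSeq starts, and a window before one start can lie within the transcript of another. Myc itself was lower at 25 h than at 1 h (log2 change -0.69 ± 0.19 SE, adjusted p = 0.0140), a call lost without 1 h replicate 2 and without the arrays numbered 1 (adjusted p 0.00277 to 0.0611 over 23 alternatives), and Max was not called.

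Of the eIF4 group, which recruits the mRNA, 8 of 9 genes were tested and Eif4e, the cap-binding protein, changed most. Its signal on replicates 1, 2 and 3 was 3802, 3379.5 and 3793 at 1 h and 2311, 3159.5 and 3911 at 5 h. At 15 h it was 1678, 1933 and 2041, and at 25 h it was 1854, 2215 and 1796. Every array at 15 and 25 h lay below every array at 1 and 5 h. The fall was 1.95-fold at 15 h (log2 change -0.96 ± 0.19 SE, adjusted p = 0.00414) and 1.88-fold at 25 h (-0.91 ± 0.19 SE, adjusted p = 0.00264). These calls held in all 23 alternatives (adjusted p up to 0.0472 and 0.0239). The step from 5 to 15 h (-0.70 ± 0.19 SE, adjusted p = 0.0282) was lost without 5 h replicate 2 or 3, without any 1 of the 15 h arrays, or without the arrays numbered 1 (adjusted p 0.00431 to 0.101 over the alternatives).

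Eif4g3, which encodes the scaffold eIF4GII, was the 1 member called higher at 25 h without the block. With the block 5 members were higher, Eif4g3 among them. Its signal was 477, 506 and 539 at 1 h, 507, 525 and 427 at 5 h, 654, 794 and 743 at 15 h and 842, 694 and 1049 at 25 h. The 15 and 25 h arrays all lay above the 1 and 5 h arrays. It was 1.68-fold higher at 25 h than at 1 h (log2 change 0.75 ± 0.18 SE, adjusted p = 0.00593). That call was lost with median centring and without the arrays numbered 1 (adjusted p 0.00149 to 0.0796 over the alternatives). Its adjusted p at 15 h against 1 h was 0.0502 (0.0264 with the block). The rise from 5 to 15 h (0.59 ± 0.18 SE, adjusted p = 0.0445) was lost without any 1 of 9 arrays, those being 1 h replicates 1 and 2, all 5 h and 15 h arrays and 25 h replicate 1. It was also lost with median centring, quantile normalization or no filter, and without the arrays numbered 1 with or without the block (adjusted p 0.0136 to 0.219 over the alternatives). Eif4g1 was not analysed here.

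Eif4a1, the main helicase of cap-dependent initiation, gave 9519.7, 8266 and 7968 at 1 h, 9346, 6690.2 and 6952 at 5 h, 7999.9, 6673 and 5459 at 15 h and 6232, 5750.2 and 5360.1 at 25 h. The 25 h arrays were all below the 1 h arrays, while 5 and 15 h overlapped with them. It was 1.48-fold lower at 25 h (log2 change -0.57 ± 0.18 SE, adjusted p = 0.0253), a call lost without 1 h replicate 1 or 2 or 25 h replicate 2 or 3 (adjusted p 0.000644 to 0.0893 over the alternatives). With the block it was lower at 15 h too (-0.37, adjusted p = 0.0148), as was 1 of its 2 other probe sets without the block (-0.61, adjusted p = 0.0299). Its paralog Eif4a2 gave 2905.5, 4013 and 2679 at 1 h, 2286, 3759 and 3535 at 5 h, 2945, 4526 and 3454 at 15 h and 4238, 5538 and 4243 at 25 h. The 25 h arrays lay above all 1 h arrays, and the difference of 0.56 ± 0.24 SE had an adjusted p of 0.0826, or 0.00431 with the block. Replicate 2 was the highest of the 3 at every time.

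Eif4b, which stimulates eIF4A, was lowest at 5 h. It gave 4520.5, 4712 and 4780.1 at 1 h, 3189.5, 3297 and 3589.7 at 5 h, 4247, 4705 and 3943 at 15 h and 4736, 3963 and 5352 at 25 h. The 3 arrays at 5 h lay below all 9 others, yet the change of -0.48 ± 0.15 SE against 1 h missed the threshold (adjusted p = 0.148); with the block it passed (adjusted p = 0.0382), as did the return at 15 h (0.35, adjusted p = 0.0485). At 25 h its difference from 1 h was -0.01 (adjusted p = 0.978). Eif4g2, a relative of eIF4G that does not bind eIF4E, gave 8351, 5919 and 5919.9 at 1 h, 8539, 5880.0 and 5213 at 5 h, 5684, 5175 and 4796 at 15 h and 6713, 4487.5 and 4349 at 25 h. It was not called at 25 h (-0.39 ± 0.23 SE, adjusted p = 0.202), and was lower with the block (adjusted p = 0.0125). The block also called it at 15 h against 1 h (-0.35, adjusted p = 0.0264). Of its other probe sets 1 was lower at 25 h (-0.73, adjusted p = 0.00337) and another at both 15 h (-0.89, adjusted p = 0.00189) and 25 h (-1.06, adjusted p = 0.000225). Eif4h, a partner of eIF4A, had a change of -0.48 (adjusted p = 0.188, or 0.00504 with the block). Eif4e2, the cap-binding homologue 4EHP, had one of -0.17 (adjusted p = 0.506). Neither of the tested eIF4E-binding genes was called by its brightest probe set: the translational repressor Eif4ebp2 differed by -0.27 and the eIF4E transporter Eif4enif1 by -0.17 at 25 h. Another probe set of Eif4ebp2 was lower at 25 h (-1.02, adjusted p = 0.00225).

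Ratios of paralogs were compared on each array over the 4 times with an exact permutation test, adjusted over the 3 pairs that could be tested. A ratio of probe set signals gives no ratio of transcript amounts, so only its change was read. The log2 ratio of Eif4e to Eif4e2 was 1.26, 1.62 and 1.72 at 1 h, 1.09, 1.29 and 1.54 at 5 h, 0.95, 0.93 and 0.86 at 15 h and 0.80, 0.81 and 0.77 at 25 h. Its means went from 1.53 through 1.31 and 0.91 to 0.79, without overlap between 1 and 5 h on one side and 15 and 25 h on the other (exact permutation p = 0.00565, adjusted p = 0.0169). Without 5 h replicate 2 the adjusted p was 0.0594; over all 17 alternatives it ran from 0.00487 to 0.0594.

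The log2 ratio of Eif4a1 to Eif4a2 was 1.71, 1.04 and 1.57 at 1 h, 2.03, 0.83 and 0.98 at 5 h, 1.44, 0.56 and 0.66 at 15 h and 0.56, 0.05 and 0.34 at 25 h. The array numbered 1 was the highest at each time, and every 25 h array lay below every 1 h array. The mean changed by -1.13 from 1 to 25 h, yet the test missed the threshold (exact permutation p = 0.0784, adjusted p = 0.118). It passed when values were permuted within replicate numbers as a block (adjusted p = 0.0156), with quantile normalization (0.0287) and without the arrays numbered 1 (0.0143), and the range over all alternatives was 0.0143 to 0.290. The ratio of Eef1a1 to Eef1a2 ran from 5.95 to 7.54 over the 12 arrays and had an adjusted p of 0.570 (exact permutation test).

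**Figure D3:**
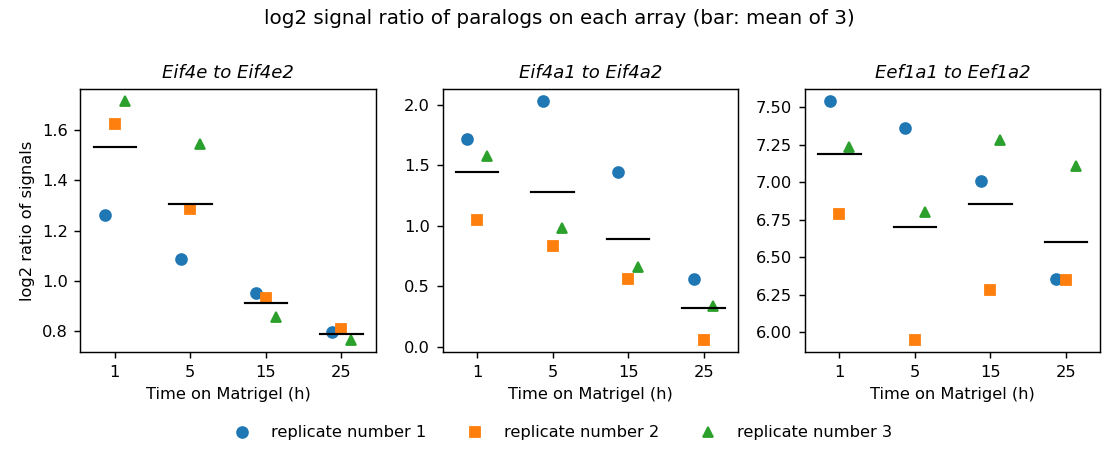
log2 ratio of signals of 3 paralog pairs on each array (points, shape and colour by replicate number) against time on Matrigel (h), with the mean of 3 arrays as a bar. The Eif4e to Eif4e2 ratio separates 1 and 5 h from 15 and 25 h, and the Eif4a1 to Eif4a2 mean goes from 1.44 at 1 h to 0.32 at 25 h.

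Of the eIF2 complex, which brings the initiator tRNA, both tested subunit genes, Eif2s2 and Eif2s3x, were lower at 25 h. At that time 15.1% of all genes tested were lower. Eif2s2, the beta subunit, gave 5668, 5149 and 4168 at 1 h, 5486, 6228 and 4506 at 5 h, 3701.5, 3388 and 3035 at 15 h and 2555.5, 3481 and 2172 at 25 h. The 15 and 25 h arrays all lay below the 1 and 5 h arrays. It was 1.85-fold lower at 25 h (log2 change -0.88 ± 0.20 SE, adjusted p = 0.00429), a call lost without the arrays numbered 1 (adjusted p 9.99e-05 to 0.0834 over the alternatives). At 15 h against 1 h its adjusted p was 0.0601, or 0.00428 with the block. Of its 5 other probe sets, those called in that comparison without the block were lower (-1.14, adjusted p = 0.00671, and -1.16, adjusted p = 0.00391). The step from 5 to 15 h (-0.67 ± 0.20 SE, adjusted p = 0.0415) was lost without 1 h replicate 2, 5 h replicate 1 or 2, any 1 of the 15 h arrays, 25 h replicate 1 or the arrays numbered 1, and with quantile normalization, no filter or no intensity trend (adjusted p 0.00207 to 0.171 over the alternatives).

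Eif2s3x, the X-linked gene of the gamma subunit that holds GTP, had less spread. Its signal was 4557, 4509 and 3843 at 1 h, 3889, 4853 and 4280.3 at 5 h, 3157, 2894 and 3041 at 15 h and 2667, 2795 and 2615.5 at 25 h, with no overlap between the first pair of times and the second. It was 1.59-fold lower at 25 h (log2 change -0.67 ± 0.14 SE, adjusted p = 0.00267), in all 23 alternatives. The fall at 15 h against 1 h (-0.50, adjusted p = 0.0219) was lost without 1 h replicate 1 or 2, 15 h replicate 2 or 3 or the arrays numbered 1, and with the mean of all probe sets (adjusted p 0.00444 to 0.112). The step from 5 to 15 h (-0.51, adjusted p = 0.0300) was lost without 5 h replicate 2 or 3, any 1 of the 15 h arrays or the arrays numbered 1, and with that mean (adjusted p 0.00565 to 0.159). Its Y-linked copy Eif2s3y was below the filter and read 45 to 86 on the arrays numbered 3 and under 10 on all others. Eif2d, which can place tRNA on the ribosome without GTP, differed by 0.28 at 25 h (adjusted p = 0.332), and at 15 h against 1 h it passed with the block (0.54, adjusted p = 0.0169). The alpha subunit gene Eif2s1 was not analysed here.

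Of the 4 tested genes of eIF2B, the exchange factor that recharges eIF2, 1 was lower at 25 h, where 15.1% of all genes were. Eif2b1, the regulatory alpha subunit, gave 1864, 1488 and 1416 at 1 h, 1624, 1593 and 1484 at 5 h, 1452, 1256 and 1273 at 15 h and 1087, 958 and 875 at 25 h. Only the 25 h arrays lay below all others. The change was 1.63-fold (log2 change -0.70 ± 0.16 SE, adjusted p = 0.00407), in all 23 alternatives. Eif2b2, the beta subunit, had a change of 0.49 (adjusted p = 0.186, or 0.0139 with the block) and was higher at 15 h with the block (0.53, adjusted p = 0.0117), and the delta subunit Eif2b4 and the catalytic epsilon subunit Eif2b5 differed by 0.40 and -0.14 without a call. Eif2ak1, the heme-regulated kinase of eIF2, differed by 0.12 (adjusted p = 0.582), and Eif2ak4, the amino acid sensor GCN2, was below the filter with a mean signal of 109.

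The eIF3 complex, the large scaffold on the small ribosomal subunit, was uneven. Of 11 tested subunits 3 were lower at 25 h, Eif3a, Eif3b and Eif3c, and the other 8 were not called. Among all genes tested 15.1% were lower and 21.6% higher. Eif3a, the largest subunit, gave 5478, 4669.8 and 5186 at 1 h, 3700.1, 4062 and 4209 at 5 h, 3464, 3563.5 and 3211 at 15 h and 2371, 2816 and 3251 at 25 h. Its 1 h arrays lay above all 9 others. It was 1.83-fold lower at 25 h (log2 change -0.87 ± 0.15 SE, adjusted p = 0.000841), in all 23 alternatives, and was also lower at 15 h (log2 change -0.58 ± 0.15 SE, adjusted p = 0.0154). The 15 h call was lost without 1 h replicate 1, 15 h replicate 3 or the arrays numbered 1 (adjusted p 0.00299 to 0.0834).

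Eif3b, which carries an RNA recognition motif and a propeller domain, gave 5446.5, 4954 and 4695 at 1 h, 5665, 4852 and 4174 at 5 h, 3396, 4428 and 3611 at 15 h and 3267, 3017 and 2598 at 25 h. Its 25 h arrays lay below all others, and the fall was 1.70-fold (log2 change -0.77 ± 0.17 SE, adjusted p = 0.00328), in all 23 alternatives. With the block it was also lower at 15 h than at 1 h (-0.41, adjusted p = 0.0231) and at 5 h (-0.36, adjusted p = 0.0477). Eif3c, which pairs with Eif3a in the core, was 1.43-fold lower (-0.51 ± 0.17 SE, adjusted p = 0.0340), but its 1 and 25 h arrays overlapped. That call was lost without 1 h replicate 1 or 3 or 25 h replicate 1 or 2, and with no filter. It was also lost without the arrays numbered 1, with or without the block (adjusted p 0.00416 to 0.287 over the alternatives). Other subunits had positive differences: Eif3f differed by 0.50 (adjusted p = 0.0619) and Eif3k by 0.64 (adjusted p = 0.0584). Both were higher with the block (adjusted p = 0.00363 and 0.00503), and Eif3l was then lower (-0.34, adjusted p = 0.0225). The block called Eif3f and Eif3k higher at 15 h against 1 h as well (0.37 and 0.49, adjusted p = 0.0277 and 0.0273). Eif3d, Eif3e, Eif3h, Eif3i and Eif3m lay between -0.31 and 0.21. Probe sets labelled for both Eif3j1 and Eif3j2, 3 of them, name no single gene and were left out.

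**Figure D4:**
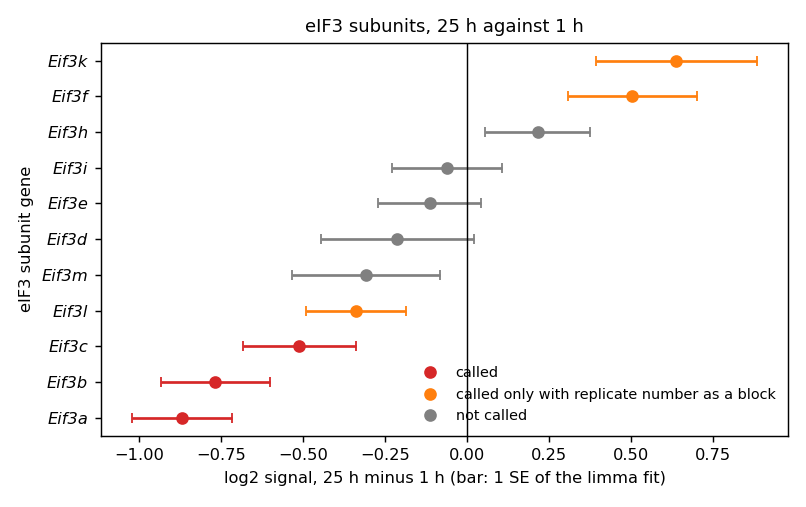
log2 difference of 25 h minus 1 h for the 11 tested eIF3 subunit genes, with 1 SE of the limma fit as the bar. Eif3a, Eif3b and Eif3c are called lower, from -0.87 to -0.51, and Eif3f and Eif3k, at 0.50 and 0.64, are called higher with the replicate number as a block.

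The 4 tested genes Eif5, Eif5a, Eif5b and Eif6, grouped here by name and not by a shared step, were all lower at 25 h. Among all genes tested 15.1% were lower, and all of these calls but that of Eif6 were lost in some alternatives. Eif6 keeps the large subunit from joining too early and takes part in making it. Its signal was 3559, 3469.7 and 3231 at 1 h, 4496, 3695 and 3534 at 5 h, 2285, 2128 and 2158 at 15 h and 1774, 2275 and 1960.4 at 25 h. The 15 and 25 h arrays lay well below the 1 and 5 h arrays. It was 1.56-fold lower at 15 h (log2 change -0.64 ± 0.15 SE, adjusted p = 0.00924) and 1.71-fold lower at 25 h (-0.78 ± 0.15 SE, adjusted p = 0.00165), and fell by 0.83 from 5 to 15 h (adjusted p = 0.00467). The 25 h call held in all 23 alternatives, and the other 2 calls were lost only without the arrays numbered 1 (adjusted p 0.0616 at 15 h against 1 h, of a range from 0.00151, and 0.0671 at 15 h against 5 h, of a range from 0.00048).

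Eif5, the protein that stimulates eIF2 to hydrolyse its GTP, gave 3284, 4302 and 2812 at 1 h, 3175, 2956 and 2646 at 5 h, 2262, 2684.5 and 1748 at 15 h and 2459, 2545 and 1949 at 25 h. The 15 and 25 h arrays lay below the 1 h arrays by a small margin. Its changes were -0.63 ± 0.20 SE at 15 h (adjusted p = 0.0389) and -0.57 ± 0.20 SE at 25 h (adjusted p = 0.0440). The first was lost without 1 h replicate 1 or 2, 5 h replicate 2, 15 h replicate 1 or 3, 25 h replicate 1 or the arrays numbered 1, with quantile normalization, with no filter and with the mean of all probe sets (adjusted p 0.00175 to 0.191). The second was lost without 1 h replicate 1 or 2, 5 h replicate 2 or 3, 15 h replicate 1, any 1 of the 25 h arrays or the arrays numbered 1, in those 3 settings, and with no intensity trend (adjusted p 0.00239 to 0.201). With the block its step from 5 to 15 h passed (-0.41, adjusted p = 0.0272). None of the 3 other probe sets of Eif5 was called, though all had the same sign.

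Eif5a, whose product carries the modified residue hypusine and helps ribosomes past slow peptide bonds, was bright: 14956, 11303 and 11493.5 at 1 h, 16293, 10841 and 11138.5 at 5 h, 14281, 8049 and 8388 at 15 h and 9124, 7197 and 6902 at 25 h. The array numbered 1 was the highest each time, and every 25 h array lay below every 1 and 5 h array. The change at 25 h was 1.62-fold (log2 change -0.70 ± 0.24 SE, adjusted p = 0.0361), or an adjusted p of 0.000109 with the block. The block also called it lower at 15 h, against 1 h (-0.34, adjusted p = 0.0202) and against 5 h (-0.34, adjusted p = 0.0233). Without the block it was lost when any 1 of the 1 h arrays or 25 h replicate 2 or 3 was left out, and with no filter (adjusted p up to 0.129). Dohh, the hydroxylase that completes hypusine, was also lower (-0.69, adjusted p = 0.0252), a call lost without 1 h replicate 1, 25 h replicate 2 or 3 or the arrays numbered 1 (adjusted p 0.000800 to 0.108), and Dhps, which starts it, differed by 0.03. Eif5b, the GTPase of subunit joining, gave 608, 568 and 621.5 at 1 h, 611, 496 and 599 at 5 h, 472, 423 and 477 at 15 h and 378, 355 and 476 at 25 h. Its later arrays lay below the earlier ones, and the gene was lower at 25 h (log2 change -0.58 ± 0.17 SE, adjusted p = 0.0154). That call was lost without 25 h replicate 1 or 2 or the arrays numbered 1 (adjusted p 0.00261 to 0.139), and the 1 other probe set of Eif5b was not called. With the block Eif5b was lower at 15 h than at 1 h (-0.39, adjusted p = 0.0406).

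Of eIF1 and eIF1A, which scan for the start codon, no gene was called at 25 h by its brightest probe set. Among all genes tested 36.7% were called. Eif1a, Eif1ax and Eif1b differed by -0.26, -0.34 and 0.24 from 1 h. With the block Eif1a was lower at 15 h than at 1 h (-0.47, adjusted p = 0.0119), and the step from 5 to 15 h passed for both Eif1a and Eif1ax (-0.38 and -0.70, adjusted p = 0.0432 and 0.0181). A dimmer probe set of Eif1ax was called lower at 15 h (-1.05, adjusted p = 0.0497) and at 25 h (-1.06, adjusted p = 0.0313). Its probe sets thus had the same sign but differed in being called.

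**Figure D5:**
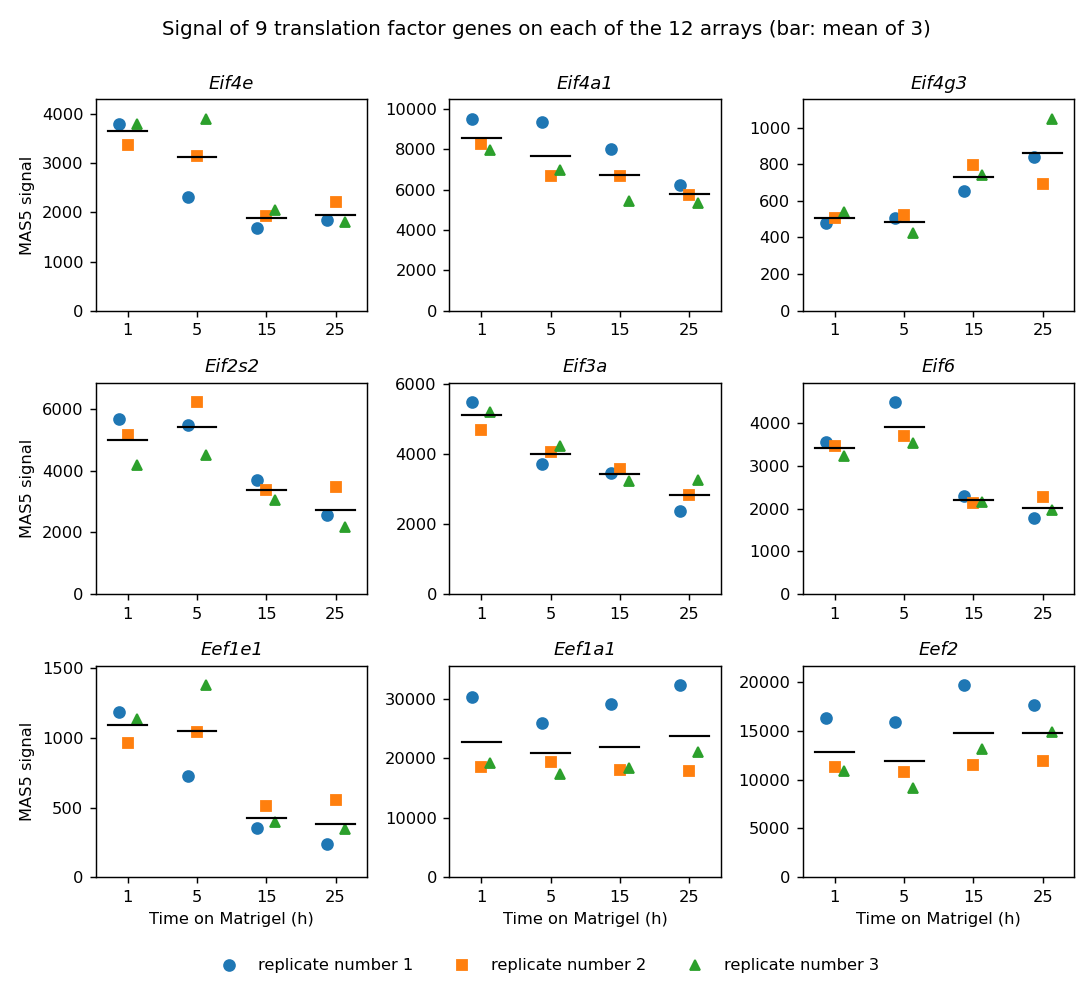
MAS5 signal of 9 factor genes on each of the 12 arrays (points, shape and colour by replicate number) against time on Matrigel (h), with the mean of 3 arrays as a bar; each panel has its own scale from 0. Eif4e, Eif2s2, Eif6 and Eef1e1 are lower on all 15 and 25 h arrays than on the 1 and 5 h arrays, Eif4g3 is higher, and Eef1a1 and Eef2 are highest on the array numbered 1 at each time.

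Among elongation factors, Eef1a1, the carrier of aminoacyl-tRNA, gave 30253, 18445 and 19199 at 1 h, 25948, 19301.5 and 17335 at 5 h, 29045, 18080.2 and 18382.5 at 15 h and 32219, 17908 and 20959.8 at 25 h. The spread between replicate numbers was larger than any difference between times. Its change at 25 h was 0.06 ± 0.27 SE (adjusted p = 0.887). Eef2, the translocase, gave 16303, 11314 and 10919 at 1 h, 15949, 10769.9 and 9142.5 at 5 h, 19657, 11528 and 13091 at 15 h and 17687, 11866.5 and 14868 at 25 h. It too was not called (0.21 ± 0.26 SE, adjusted p = 0.553); with the block only its rise from 5 to 15 h passed (0.31, adjusted p = 0.0496). Eef1b2, an exchange subunit for eEF1A, differed by 0.27 (adjusted p = 0.216), and the tissue-restricted paralog Eef1a2, close to the filter with signals of 118 to 394, by 0.64 (adjusted p = 0.225).

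Eef1d, the other exchange subunit tested, did fall. Its signal was 3186, 2989.7 and 3121 at 1 h, 4090.5, 3741.5 and 3658 at 5 h, 2369, 1943 and 2499.8 at 15 h and 1792, 2159.6 and 2121 at 25 h. The 5 h arrays were the highest and the 15 and 25 h arrays the lowest, with no overlap. It was 1.54-fold lower at 25 h than at 1 h (log2 change -0.62 ± 0.15 SE, adjusted p = 0.00594) and 1.69-fold lower at 15 h than at 5 h (-0.76 ± 0.15 SE, adjusted p = 0.00658). Both were lost without the arrays numbered 1 and in no other alternative (adjusted p up to 0.0833 and 0.0788). The smaller difference of 15 h from 1 h (-0.46, adjusted p = 0.0410) was lost without any 1 of 8 arrays, all of 1 h and 15 h and 5 h replicates 2 and 3, without the arrays numbered 1 with or without the block, with quantile normalization, no filter and no intensity trend (adjusted p 0.0121 to 0.147).

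The largest change of any member at 25 h was that of Eef1e1. Despite its symbol the gene encodes AIMP3, a small protein of the multi-tRNA synthetase complex rather than an elongation factor. It gave 1182, 960.3 and 1133 at 1 h, 729, 1044 and 1375 at 5 h, 355, 513 and 397 at 15 h and 242, 551 and 346 at 25 h. All 15 and 25 h arrays lay below all 1 and 5 h arrays. It was 2.61-fold lower at 15 h (log2 change -1.38 ± 0.29 SE, adjusted p = 0.00577) and 3.03-fold lower at 25 h (-1.60 ± 0.29 SE, adjusted p = 0.00118). The 25 h call held in all 23 alternatives, and the 15 h call was lost only without the arrays numbered 1 (adjusted p = 0.0506, of a range from 0.000568). The step from 5 to 15 h (-1.28, adjusted p = 0.0141) was lost without 5 h replicate 3, 15 h replicate 1 or the arrays numbered 1 (adjusted p 0.00160 to 0.0578). Eef2k, the kinase that inhibits eEF2, gave 185, 199 and 178 at 1 h, 144, 150.1 and 179.8 at 5 h, 201, 163 and 188 at 15 h and 244, 226 and 224 at 25 h. These lie around the filter, and the 25 h arrays were above all others without a call (0.31 ± 0.21 SE, adjusted p = 0.273). The methyltransferase gene Eef1akmt1 passed at 15 h against 1 h with the block (0.55, adjusted p = 0.0270).

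The 5 members below the filter were Eif2s3y, Eif4e3, Eif2ak4, Eef1aknmt and Eef2kmt, with mean signals of 21.9, 55.1, 109, 88.6 and 12.6. For them no change was tested. Values of other probe sets, here and above, come from a separate limma fit over all 11652 probe sets above the filter. The share of all probe sets called in that fit is not given here, so the counts have no background. Where a called gene had further probe sets above the filter, they gave no opposite call. At 25 h against 1 h, 10 of the called genes had 23 others, of which 23 had the same sign and 13 the same call. Fewer repeated the call at 15 h against 1 h, where 5 genes had 11 others, 11 of the same sign and 3 with the same call. At 15 h against 5 h 4 genes had 10 others, 10 of the same sign and 5 with the same call. Among members that were not called at 25 h, 3 had another probe set that was, all lower: Eif1ax, Eif4ebp2 and Eif4g2. At 15 h against 1 h there were 4, all lower: Eif1ax, Eif2s2, Eif4a1 and Eif4g2.

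Genes next to the factors in the pathway were read from lists chosen with earlier results of these data known. Their counts at 25 h stand against 36.7% of all genes called, 15.1% lower and 21.6% higher, or 51.2% with the block, and nothing particular to a list is read from them. In termination and recycling 4 of 7 tested genes were lower at 25 h and 1 was higher, with the same counts under the block. Etf1, the release factor eRF1, was 2.02-fold lower (log2 change -1.01 ± 0.18 SE, adjusted p = 0.00107) and Abce1, which splits the ribosome after termination, was 1.89-fold lower (-0.92 ± 0.24 SE, adjusted p = 0.0101), both in all 23 alternatives. Denr, a recycling and reinitiation factor, was 2.06-fold lower (-1.04, adjusted p = 0.00884) and Gspt1, the release factor eRF3a, 1.72-fold lower (-0.78, adjusted p = 0.00575). Both lost the call without the arrays numbered 1, and Denr also with the mean of all probe sets (adjusted p up to 0.0842 and 0.0614). Mcts1, the partner of Denr, was 1.66-fold higher (0.73, adjusted p = 0.0188), a call lost with median centring and without 1 h replicate 1, 25 h replicate 2 or the arrays numbered 1 (adjusted p 0.00192 to 0.0973).

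Of 6 tested genes around the eIF2 kinases and phosphatase, 2 were lower at 25 h and 1 higher, or 2 and 2 with the block. Ppp1r15a, the stress-induced subunit (GADD34) that directs a phosphatase to eIF2, gave 1486.5, 1617 and 1443 at 1 h, 723, 642 and 492 at 5 h, 410.0, 412 and 601 at 15 h and 523, 384 and 659 at 25 h. It was already 2.48-fold lower at 5 h (log2 change -1.31 ± 0.23 SE, adjusted p = 0.0150), where 1.65% of all genes were called, and 2.97-fold lower at 25 h (-1.57, adjusted p = 0.000269). The constitutive counterpart Ppp1r15b was 2.19-fold lower at 25 h (-1.13, adjusted p = 0.00171); both 25 h calls held in all 23 alternatives. Impact, an inhibitor of GCN2 activation, was 1.69-fold higher (0.75, adjusted p = 0.00778), a call lost with median centring and without the arrays numbered 1 (adjusted p 0.00212 to 0.0681).

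Among 10 tested genes of the mTOR and MNK control of the cap, 2 were higher and 1 lower at 25 h, a share near that of all genes, or 4 higher and 2 lower with the block. Pdcd4, which blocks eIF4A, was 2.01-fold higher (log2 change 1.01 ± 0.25 SE, adjusted p = 0.00812) in all 23 alternatives. Mknk2, a kinase of eIF4E, was 1.59-fold higher (0.67, adjusted p = 0.0124), a call lost with median centring and without the arrays numbered 1 (adjusted p 0.00207 to 0.106). Larp1, which binds mRNAs of the translation machinery, was 1.77-fold lower (-0.83, adjusted p = 0.00524), lost without the arrays numbered 1 (adjusted p up to 0.0588). Of 5 tested genes around the poly(A)-binding proteins Paip2 was higher (0.87, adjusted p = 0.0242) and Pabpc4 and Paip2b lower (-0.73 and -0.54, adjusted p = 0.00435 and 0.0257). Pabpc4 lost the call without the arrays numbered 1. Paip2 lost it without 1 h replicate 1 or 25 h replicate 2 or 3 and with median centring, and Paip2b without 1 h replicate 2, 25 h replicate 3 or the arrays numbered 1 (adjusted p up to 0.0592, 0.103 and 0.105).

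In mitochondrial translation 1 of 5 tested factors was higher at 25 h, the initiation factor Mtif2 (1.01, adjusted p = 0.00364), and 1 lower, the elongation factor Gfm1 (-0.85, adjusted p = 0.00531), again a share near that of all genes. With the block 2 were higher and 1 lower. The Mtif2 call was lost without the arrays numbered 1 (adjusted p = 0.0661, of a range from 0.000345) and that of Gfm1 held in all 23 alternatives. The cytosolic ribosomal protein genes had 2 higher and 4 lower of 45 tested at 25 h, or 6 higher and 4 lower with the block, with a median log2 change of 0.07, beside -0.19 for the translation factors and 0.13 for all genes tested.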

How the data were processed

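Total RNA of MB114 cells was read on 12 Affymetrix mouse arrays, 3 at each of 4 times. The deposited table holds 1 intensity per probe set and array; MAS5 is named in the submitters' processing notes, with no settings or detection calls stated. All 12 arrays have a trimmed mean (2% off each end) near 500. Probe sets with 1 gene symbol in the platform annotation were used, the brightest per gene, if the signal reached 183.1 (the 50th percentile of all signals) on 3 of 12 arrays. log2 signals were fitted with limma 3.58.1 (R 4.3.3; 1 mean a time, 8 residual degrees of freedom, intensity trend), with Benjamini-Hochberg adjustment over 7379 genes. Replicate numbers, from the titles, paired the arrays: deviations of same-number arrays correlated at 0.328 to 0.758, against -0.590 to 0.198 over 36 pairs of other number and time. Deviations were taken from the mean of the 3 arrays of a time. A positive correlation for the same number therefore lowers the others, and the 2 ranges are not independent. The block was an alternative. Paralog ratios were tested by exact permutation (15400 partitions, two-sided). Members are named under a rule set with the design: any may be named, and signals on each array are given for the called members with the smallest adjusted p and for central factors whatever their values; Ppp1r15a was added after its values were seen. Members and lists were chosen with earlier results of these data known. Scripts were tested on simulated data. Sequences are from RefSeq (GRCm38.p6). The number of arrays limits the precision.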

Additional observations from a re-analysis of the deposited data

How the results depend on the processing

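Over 23 alternatives none of the 29 member calls reversed direction. All 29 were kept with the replicate number as a fixed or random block, with the filter at the 60th percentile and with an offset before log2, while 27 were kept with median centring, 26 with no intensity trend, 25 with the mean of all probe sets, 24 with quantile normalization and 22 with no filter. Without the arrays numbered 1, 10 were kept, and 26 with the block as well. The fixed block gave 1 call at 5 h against 1 h, 20 at 15 h against 1 h, 14 at 15 h against 5 h and 25 in the F test. With a random block these were 1, 17, 10 and 22. Without the arrays numbered 1 the counts were 1 at 15 h against 1 h, 0 at 15 h against 5 h and 5 in the F test, where 6.37%, 0.0407% and 14% of all genes were called. Leaving out 1 array at a time gave 0 calls at 5 h against 1 h and at 25 h against 15 h, 3 to 9 at 15 h against 1 h, 12 to 16 at 25 h against 1 h, 2 to 8 at 15 h against 5 h and 10 to 12 in the F test. The adjusted p of the Eif4a1 to Eif4a2 ratio was 0.0287 with quantile normalization, 0.0156 with the replicate block and 0.0143 without the arrays numbered 1, where both tested eIF4 ratios reached 0.00952, the smallest p that design allows; with 1 array left out it was 0.0609 to 0.290. That of Eif4e to Eif4e2 was then 0.00487 to 0.0594, and that of Eef1a1 to Eef1a2 0.322 to 0.828. The cause of these shifts was not tested. The same alternatives for the related genes were added after seeing the data.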
